A study of Drosophila melanogaster with 2 samples.

Results

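The Rab genes encode small GTPases that steer the traffic of membrane vesicles. They were taken as the protein-coding genes whose symbol is Rab followed by a number, or RabX followed by a number, with at most a short letter suffix. The rule found 33 Rab genes among 13968 protein-coding genes on the chromosome arms of the Ensembl annotation. Genes such as Rab3-GEF, which regulate Rab proteins, were not members. From general knowledge of the proteins, 13 were grouped as widely used, meaning that they serve steps of traffic common to most cells. A further 8 were grouped as tissue-limited, meaning that they are known from particular cells such as neurons or pigment cells, and 12 were left unclassified. The grouping did not come from these data, and expression of the genes in these embryos was not measured.

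A Rab protein acts as a switch. Loaded with GTP it sits on a membrane and recruits effectors, such as tethers and motor proteins, and after GTP is hydrolysed it returns to the cytosol bound to GDI. Exchange factors (GEFs) load the GTP, and GTPase-activating proteins, many of them with a TBC domain, speed its hydrolysis. Different Rab proteins mark different compartments, among them Rab5 on early endosomes, Rab7 on late endosomes and lysosomes, and Rab11 on recycling endosomes.

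The measurement was chromatin immunoprecipitation followed by sequencing (ChIP-seq) of CG4360, a zinc finger protein. The chromatin came from whole Drosophila melanogaster embryos aged 0 to 24 h, from transgenic flies that make CG4360 fused to enhanced green fluorescent protein (eGFP), and an antibody against GFP was used. There was 1 group with 2 biological replicates, both from the same transgenic line, and the embryos were whole, so all cell types and stages of that window were mixed. A control experiment named in the labels was not analysed here, so signal at the Rab genes without the tagged protein was not tested.

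The data were lists of peak calls on the dm6 assembly, which is release 6 of the fly genome. The conservative list, which sets the true replicates against each other, held 5697 peaks, and the pooled list held 6198. The lists of replicate 1 and replicate 2 held 4519 and 3682 peaks. All 4 were cut at an irreproducible discovery rate (IDR) of at most 0.01, a measure of how well a call's rank repeats between data sets, and each had a ranked list of 88251 to 129286 calls that also holds the weak ones. Signal is the authors' own value for a call. Its scale is not stated in the headers or labels, so it was read within 1 list only, where the median was 103.8 over the conservative peaks, 97.4 over the pooled, 68.8 in replicate 1 and 69.4 in replicate 2. The depth of sequencing is unknown, so no interval on a signal value is given.

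A few short words, chosen with earlier results of these data known, were searched at the peaks. The sequences at the strongest Rab peaks are shown for the searched word found there most often. Each is written 5′ to 3′ on the strand of the gene from release 6, as RefSeq gives it. Windows in introns or outside the gene reach 50 bases to each side of the summit, the base where a peak is highest. Inside an untranslated region (UTR), 30 bases are shown, placed on the word CAACAAC where it occurs within 50 bases of the summit (so that the summit itself can lie outside) and on the summit where it does not. Capitals mark the 7-base word CAACAAC, its relatives with a G in place of an A (the words CAGCAAC and also CAACAGC and finally CAGCAGC), or the reverse complement of any of these, inside the printed window. The first 6 hold CAACAAC or its reverse complement. The strongest peaks of RabX1 and Rab32 hold it too, but their sequences are not printed. On either strand within 50 bases, 45.1% of all 5692 conservative summits on the chromosome arms hold it as well.
Rab35, chrX:20159238-20159267, minus strand, 5′ UTR: cagcaaaaaCAACAACAACAACagaccagc
Rab14, chr2L:14355578-14355678, plus strand, intron: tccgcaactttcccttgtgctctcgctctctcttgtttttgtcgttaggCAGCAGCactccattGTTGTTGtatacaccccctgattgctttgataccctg
Rab11, chr3R:21112056-21112156, plus strand, intron: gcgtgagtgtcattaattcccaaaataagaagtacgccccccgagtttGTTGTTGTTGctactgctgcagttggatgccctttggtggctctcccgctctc
Rab7, chr3R:23993032-23993061, plus strand, 5′ UTR: tcctagcgagaCAACAACaaaattcactgc
RabX6, chr3L:690529-690558, plus strand, 5′ UTR: gttgtcgcactGTTGTTGtcgcctttgtgt
Rab8, chr3L:19871523-19871623, minus strand, upstream of the gene: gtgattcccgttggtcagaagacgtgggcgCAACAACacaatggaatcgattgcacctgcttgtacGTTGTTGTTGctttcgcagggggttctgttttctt
The other 3 come from the peaks without that word.
Rab5, chr2L:2363626-2363726, minus strand, intron: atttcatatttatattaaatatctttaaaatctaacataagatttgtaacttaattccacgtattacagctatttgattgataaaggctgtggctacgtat
Rab1, chr3R:21269014-21269043, minus strand, 5′ UTR: cattttttcagtcgccattgttctcgttct
Rab9, chr2L:19434427-19434527, plus strand, intron: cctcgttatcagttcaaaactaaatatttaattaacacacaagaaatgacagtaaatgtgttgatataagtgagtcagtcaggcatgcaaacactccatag
At Rab35 the word repeats without a break, at Rab11 it repeats on the opposite strand, and at Rab8 it stands on each strand in turn.

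Peaks were found at 11 of 33 Rab genes. In the conservative list these 11 (33.3%) had a summit inside the gene or no more than 500 bp from one of its starts, whereas 21.0% of all protein-coding genes did. A summit at most 500 bp from a start, called a promoter summit here, was found at 8 Rab genes (24.2%), against 15.9% of all protein-coding genes. A summit inside the gene was found at 10 Rab genes (30.3%), against 15.3% of all protein-coding genes. No test was made of these shares, because the genes were chosen with earlier results known and are not replicates of a condition. Among the widely used genes 7 of 13 had a summit by either rule, among the tissue-limited 1 of 8 (Rab32) and among the unclassified 3 of 12 (RabX1, RabX6 and Rab9).

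The other lists gave similar counts for the family and less steady ones for its groups. The promoter count was 10 in the pooled list, 6 in replicate 1 and 7 in replicate 2, where the shares over all protein-coding genes were 17.1%, 13.2% and 10.6%. The count inside the gene was 11 in the pooled list, 9 in replicate 1 and 8 in replicate 2, where the shares over all genes were 16.3%, 12.8% and 11.2%. Of the widely used genes, 5 had a conservative promoter summit, and 5 had one in replicate 2 but only 2, Rab5 and Rab7, in replicate 1. In replicate 1 the Rab14 summit lay 505 bp from the start, just past the limit, and the calls at Rab8 and Rab1 did not pass the IDR threshold. Of the tissue-limited genes, 1 had a conservative promoter summit and 1 had one in replicate 2, whereas 3 did in the pooled list and 2 in replicate 1. Inside the gene, the widely used count was 6 in the conservative and pooled lists and in replicate 2, and 5 in replicate 1. The tissue-limited count there was 2 in the pooled list and 1 in each of the other lists.

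**Figure D1:**
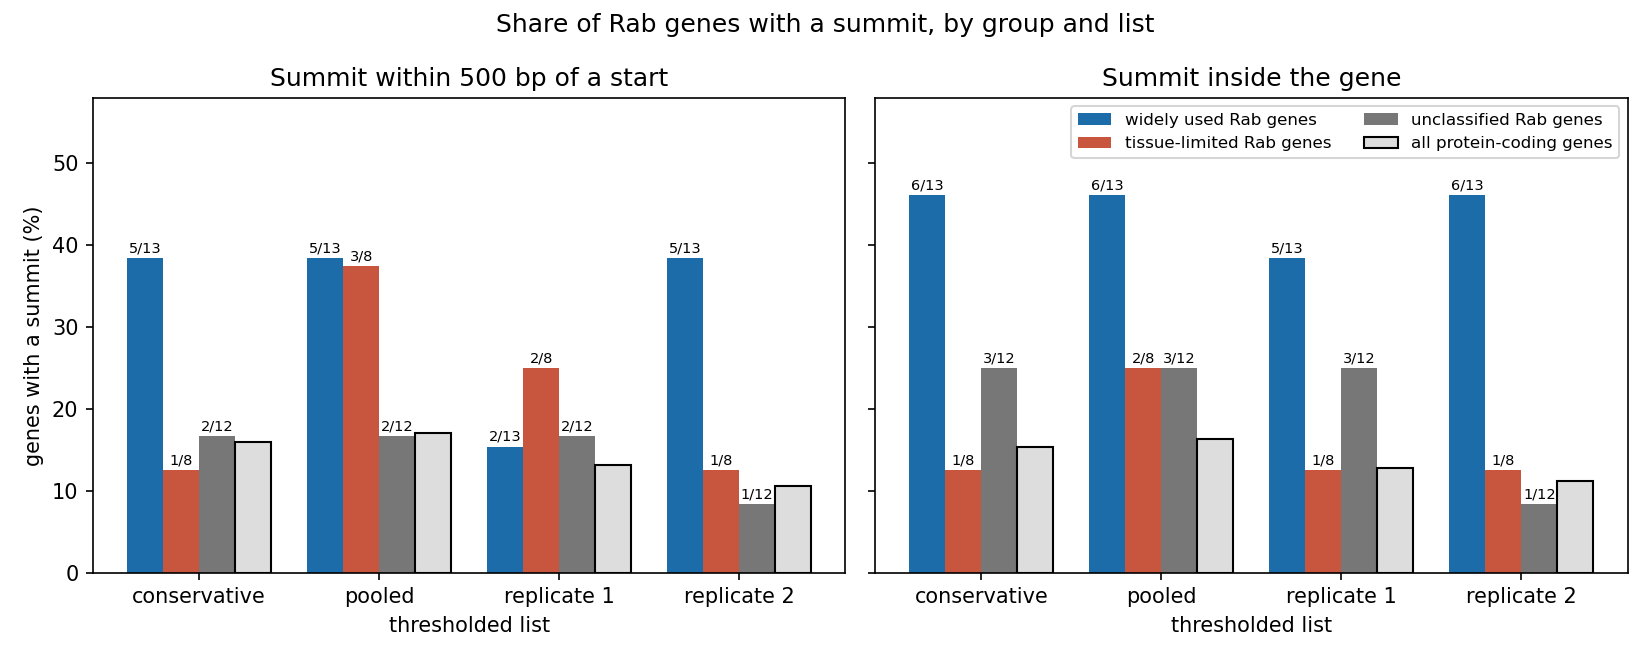
Percentage of Rab genes with a summit in the conservative, pooled, replicate 1 and replicate 2 lists, by group, at a start and inside the gene, with the number of genes above each bar and all protein-coding genes in grey. The widely used promoter count stood at 5, 5, 2 and 5 of 13 genes, and the tissue-limited one at 1, 3, 2 and 1 of 8.

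Genes differ in how many starts they have and in length, and a gene with more of either offers more room for a summit. Of the 33 Rab genes 24 had a single annotated start, and their median length was 2445 bp, near the 2164.5 bp over all protein-coding genes. Single-start Rab genes had a promoter summit in 3 of 24 cases (12.5%), close to the 10.8% over all single-start genes. Those with more starts had one in 5 of 9 (55.6%), against 29.7% over all such genes. Inside the gene, the shares were 25% of 24 single-start Rab genes against 8.58% over all, and 44.4% of 9 against 34.0%. Among the widely used genes 8 of 13 had 1 start, and among the tissue-limited 5 of 8. A promoter summit was found at 1 of the 8 widely used genes with 1 start and at 4 of the 5 with more. Among the tissue-limited genes it was found at 0 of 5 with 1 start and at 1 of 3 with more. The median lengths of the widely used and tissue-limited genes were 3032 bp and 4236 bp, and 1 of the 13 against 4 of the 8 were longer than 5000 bp. The unclassified genes were shorter, with a median of 1052.5 bp and a single start in 11 of 12. None of the 7 Rab genes of up to 1000 bp had a promoter summit, where the share over all genes of that length was 4.98%.

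Among the Rab genes that act in the recycling of membrane to the cell surface, Rab35 and Rab11 had peaks in their first kilobase. Rab35 (FBgn0031090), known for recycling from endosomes and for organising actin, had a conservative peak of signal 464 at X, 20159079 to 20159351, ranked 396 of 5697. Its signal was 261 in replicate 1 and 205 in replicate 2, both thresholded, and the 2 summits lay within 6 bp of the conservative one. The summit was in the 5′ UTR and 648 bp past the start, so it counted as inside the gene but not as a promoter summit. Rab11 (FBgn0015790), the marker of recycling endosomes, which is needed when the early embryo divides its surface into cells, had its strongest peak at 3R, 21112016 to 21112178. That peak had a signal of 302 (rank 755), with 185 in replicate 1 and 119 in replicate 2, and lay in an intron 698 bp past the start. Weaker summits in the same gene stood 1788 bp and 1987 bp past the start with signals of 100.2 and 56.8. Both of these carried the same pair of replicate values, 46.0 and 55.6, so they matched a single call in each replicate and are 1 site. Just inside the 500 bp limit, by contrast, were Rab8 at 495 bp and Rab14 at 483 bp, and just outside it were Rab35 at 648 bp and Rab11 at 698 bp.

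Rab5 (FBgn0014010), which governs fusion of early endosomes, had a signal of 209 (rank 1232) at 2L, 2363481 to 2363870. Its signal was 134 in replicate 1 and 79.9 in replicate 2, where the summit was shifted by 133 bp. This summit was in an intron, 172 bp upstream of an internal start and 1597 bp from the 5′ end of the gene, and Rab5 had 6 annotated starts. It was therefore a promoter summit only because internal starts were counted. Rab7 (FBgn0015795), which directs late endosomes to lysosomes, had a signal of 230.5 (rank 1087) at 3R, 23992844 to 23993233, with 134 in replicate 1 and 98.4 in replicate 2. The summit was in the 5′ UTR, 31 bp past the Rab7 start and 123 bp from the start of the neighbouring gene Epp, so the peak could be assigned to either gene. A second call 237 bp past the 5′ end of Rab7 had a signal of 2.72 and the same pair of replicate values, and is not a separate site.

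Rab14 (FBgn0015791), which acts between endosomes, Golgi and phagosomes, had a signal of 409 (rank 480) at 2L, 14355539 to 14355775. It was 232 in replicate 1 and 167 in replicate 2, with summits within 22 bp of the conservative one. The summit was in an intron 483 bp past the start, where the long non-coding gene lncRNA:CR44851 also lies. Further calls in the 3′ UTR of Rab14 had signals of 68.5 and 37.4, both below the list median. Rab9 (FBgn0032782), known in mammals for transport from late endosomes to the Golgi, had the weakest of the strongest peaks, with a signal of 70.9 (rank 4355) at 2L, 19434282 to 19434671 in an intron. Its signal was 27.6 in replicate 1 and 38.5 in replicate 2, neither of them thresholded, and the call was absent from the pooled thresholded list. The Rab9 call rested on the conservative list alone.

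Rab8 (FBgn0262518), which carries cargo from the Golgi to the cell surface, had a signal of 113 (rank 2597) at 3L, 19871378 to 19871767. It was 60.0 in replicate 1, not thresholded, and 43.1 in replicate 2. The summit was 495 bp upstream of a Rab8 start, inside the gene Usp32 and 434 bp from a start of that gene, so it lay closer to Usp32 than to Rab8. Rab1 (FBgn0285937), which serves transport from the endoplasmic reticulum to the Golgi, had a signal of 75.0 (rank 4104) at 3R, 21268833 to 21269222, 32 bp past its start. Its values were 35.9 in replicate 1, not thresholded, and 45.1 in replicate 2. The remaining widely used genes Rab2, Rab4, Rab6, Rab10, Rab18 and Rab21 had no thresholded summit in any of the 4 lists.

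The strongest Rab peak of all was at a gene outside the widely used group. RabX1 (FBgn0015372) had a signal of 515 (rank 326) at 2R, 23523302 to 23523568. Its signal was 290.7 in replicate 1 and 220.3 in replicate 2, with summits within 18 bp of the conservative one. The summit was in the 5′ UTR, 195 bp past the start, and 438 bp from the start of the neighbouring gene mi. Rab32 (FBgn0002567), also known as lightoid and required for pigment granules of the eye, was the tissue-limited gene with a conservative peak. Its signal was 266 (rank 898) at 2R, 9186206 to 9186314, in the 5′ UTR 70 bp past the start, with 169.7 in replicate 1 and 97.4 in replicate 2. Calls of 47.4 and 30.3 further inside the gene, beside lncRNA:CR44284, shared 1 pair of replicate values. RabX6 (FBgn0035155) had a signal of 127 (rank 2246) at 3L, 690326 to 690715, only 4 bp past its start and 440 bp from the start of CG32483. The replicates differed most here, with 101 in replicate 1 and 33.2 in replicate 2, where the call did not pass the threshold.

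**Figure D2:**
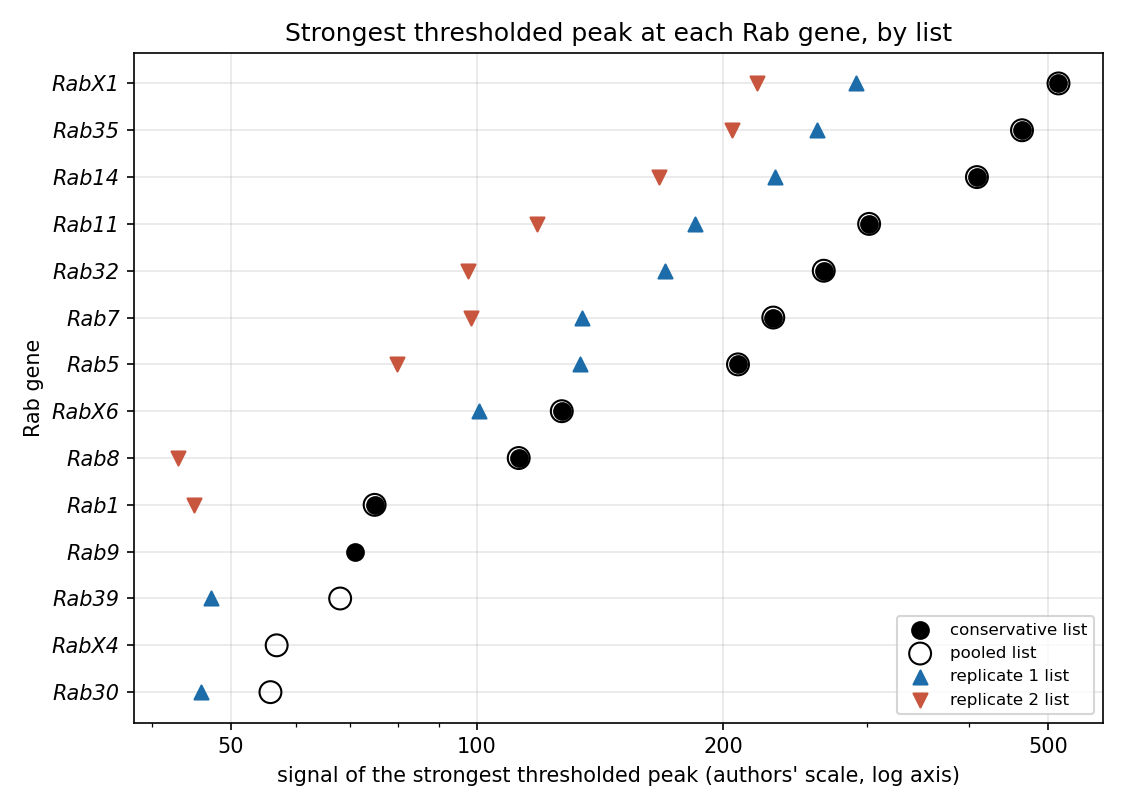
Signal of the strongest thresholded peak at each of the 14 Rab genes with a peak in at least 1 list (log axis, the authors' scale), with a symbol for each list. RabX1 at 515 and Rab35 at 464 stood highest, and the replicate symbols are absent where the call did not pass the threshold in that replicate.

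Of the 11 strongest peaks, 9 were above the median signal of the conservative list, which also counts weaker calls at the same gene. The median of the 11 was 230.5, where the median of the strongest summit over the 2935 protein-coding genes with one was 132. Below 132 were RabX6 at 127, Rab8 at 113, Rab1 at 75.0 and Rab9 at 70.9. Signal was higher in replicate 1 at 9 of the 11 genes and higher in replicate 2 at 2, Rab1 and Rab9. A value in both replicates came with the conservative list, which pairs their calls. The ratio of replicate 1 to replicate 2 had a median of 1.39 and ran from 0.717 to 3.04 (RabX6). Over all 5697 conservative peaks the ratio of the same columns had a median of 1.16 and quartiles of 0.893 and 1.45. Whether the replicates were scaled alike is not stated, so these ratios describe the lists and not binding.

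The 11 genes held 18 conservative summits, of which 3 repeated the replicate pair of a stronger neighbour. By position, 7 lay in a 5′ UTR, 8 in an intron, 2 in a 3′ UTR, none in coding sequence and 1 outside the gene. These positions were not counted over all conservative summits, so whether they are particular to Rab genes was not tested. The promoter rule held for 9 of the summits, and the other 9 were inside a gene only.

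**Figure D3:**
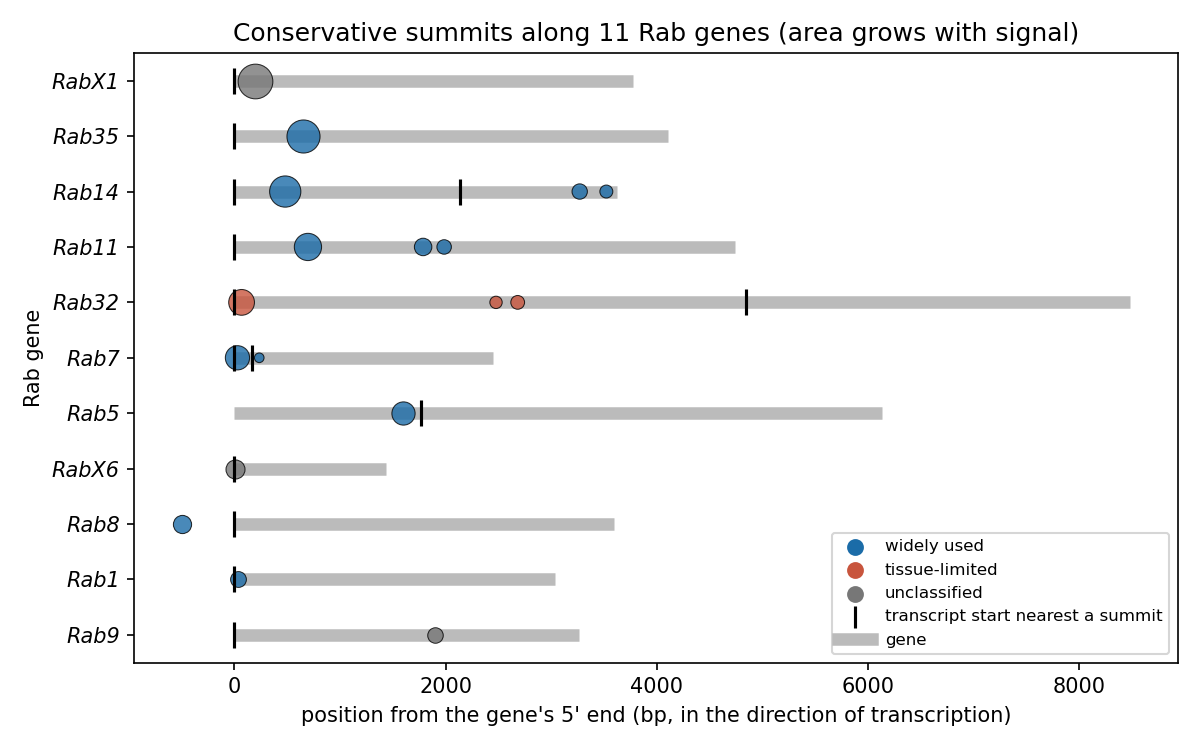
Map of the 11 Rab genes with a conservative summit, drawn by distance from the gene's 5′ end in bp, with the area of a symbol growing with the signal and black ticks at the transcript start nearest each summit. The strongest summits of Rab35 and Rab11 lie 648 bp and 698 bp past the start, the Rab5 summit lies beside an internal start, and the Rab8 summit lies upstream of the gene.

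Some Rab genes had a thresholded peak in another list but not in the conservative one. Rab39, whose mammalian relatives act at lysosomes, had a pooled peak of 68.0 in an intron 605 bp past the start, and 47.3 in replicate 1. Its call in replicate 2 had a signal of 25.0 and was not thresholded. Rab30 had a pooled peak of 55.9 and a replicate 1 peak of 46.0, lying 48 bp upstream of its start and 67 bp from the start of Caper. In replicate 2 the ranked signal there was 8.99. RabX4 had a pooled peak of 56.9 in its 5′ UTR, 281 bp past the start, with ranked signals of 37.2 and 22.2 in the replicates. These 3 peaks were all below the pooled median of 97.4, and Rab30 and RabX4 account for the higher tissue-limited count in that list.

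The genes without a conservative summit mostly had weak calls. In the conservative ranked list, 30 of all 33 Rab genes (90.9%) had a call by either rule, as did 87.0% of all protein-coding genes. Of the 22 Rab genes without a conservative summit 19 had one, with a strongest signal of 5.34 to 68.0 and a median of 38.9. The 16 of them that passed in no list reached at most 52.8. Among the widely used genes, Rab2, which acts at the Golgi and in lysosome delivery, reached 52.8 and Rab6, a Golgi protein, 38.9. Rab4 (fast recycling) reached 33.7, Rab18 (lipid droplets) 28.1, Rab21 27.3 and Rab10 (secretion of basement membrane) 20.5. Among the tissue-limited genes, Rab23, which acts in planar cell polarity, reached 51.8, Rab19 50.4, Rab26 49.5, Rab27 (regulated secretion) 37.7 and Rab3, the regulator of synaptic vesicle release, 36.3. Among the unclassified genes RabX5 reached 43.9, Rab40 40.6, RabX2 14.5, Rab9D 8.06 and Rab9Fa 5.34. Signals of the widely used and tissue-limited genes without a peak thus overlapped.

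The ranked list covers most starts and separates the genes little. A ranked call within 500 bp of a start was found at 30 of 33 Rab genes, where 77.4% of all protein-coding genes had one. The median of the strongest such call was 31.1 over the Rab genes and 35.4 over all 10807 genes with one. It was 27.3 over the 13 widely used genes, 42.1 over the 8 tissue-limited and 28.6 over 9 unclassified. The tissue-limited median was also the higher in replicate 1 (29.4 against 17.2) but the lower in replicate 2 (18.7 against 44.1). In those lists 10 and 8 of the 13 widely used genes had such a call, against all 8 tissue-limited genes in each. The medians leave out genes without a call, so the order of the groups cannot be compared between replicates.

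**Figure D4:**
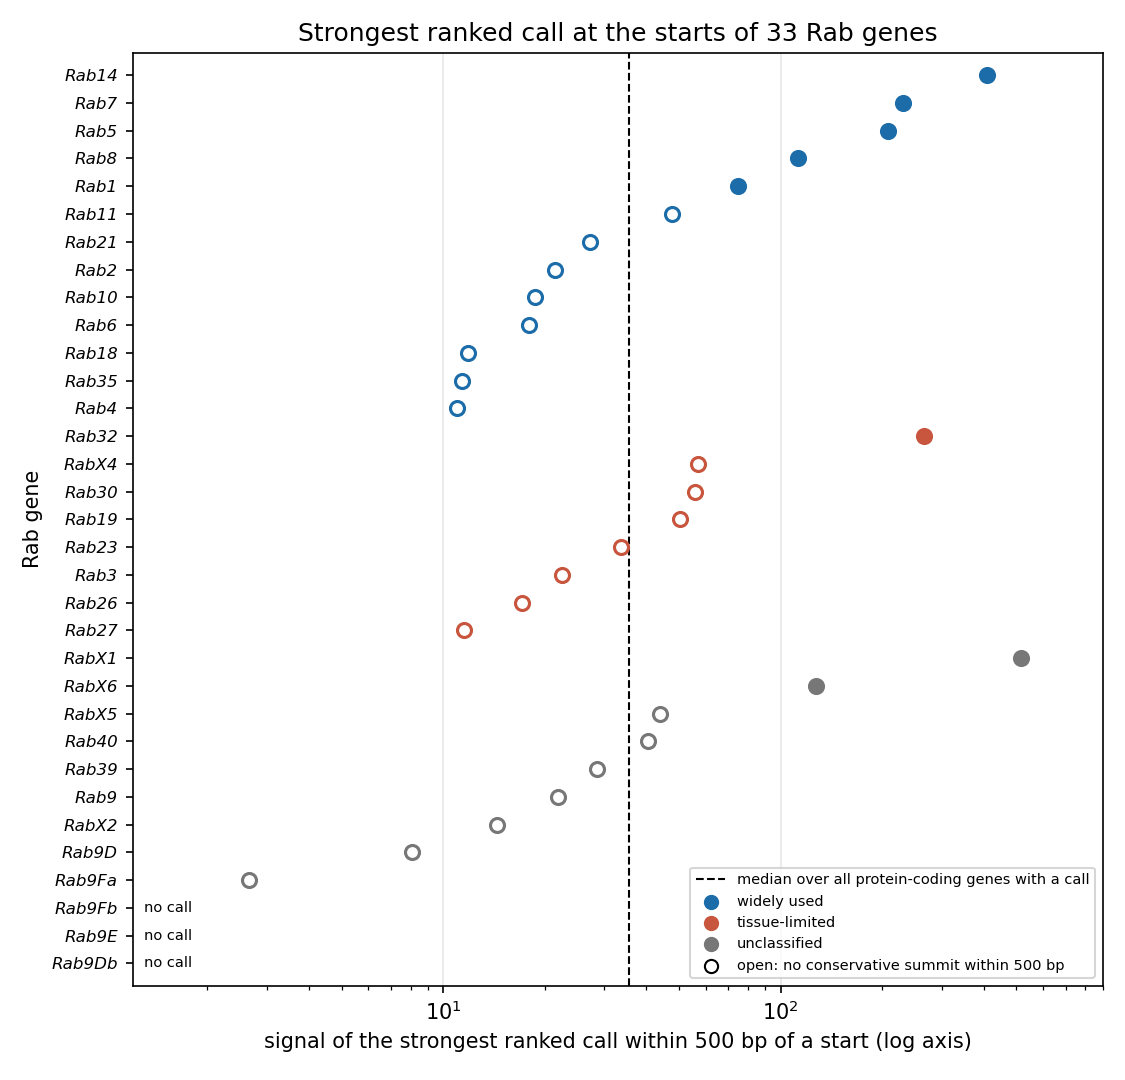
Signal of the strongest ranked call within 500 bp of a start for the 33 Rab genes (log axis), by group, with filled symbols for genes with a conservative promoter summit and a dashed line at the median of 35.4 over all protein-coding genes with a call. Rab14 at 409 and RabX1 at 515 stand far to the right, and 3 genes have no call.

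The genes with no call in the conservative ranked list were Rab9Db, Rab9E and Rab9Fb. In other ranked lists Rab9Db had a call of 9.63 (pooled) and of 6.15 (replicate 1) and Rab9Fb had a call of 12.8 (replicate 2), while Rab9E had none. With Rab9D and Rab9Fa they form 5 short copies on the X chromosome. Their gene sequences were 77.4% to 99.0% identical over 10 pairs, with Rab9Fb the most distant. How reads from near-identical copies were placed is not stated in the headers or labels, and its part in the low values was not tested.

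The word CAACAAC was the most frequent searched word at Rab summits. The searched words were chosen with earlier results of these data known, so their shares describe the summits and test nothing. On either strand within 50 bp, CAACAAC was present at 10 of 18 Rab summits (55.6%) and at 45.1% of all 5692 conservative summits on the arms. The share was 4.82% in windows centred 500 bp away and 4.34% at ranked calls that did not pass the threshold. The 18 include 3 calls that repeat a stronger neighbour's replicate pair. Of these, the Rab11 call held CAACAAC and those at Rab7 and Rab32 did not. CAACAGC and CAGCAGC, which can lie beside CAACAAC in one repeat, were each at 3 of the 18, against 16.1% and 13.3% of all summits, and CAGCAAC was at 1, against 18.5%. GAGAG, the core bound by GAGA factor, was at 4, against 17.6%, and TATCGATA, bound by DREF, was at 1, against 0.720%. That single summit was the one at Rab7, and the pooled Rab30 summit held the word too. Of the 11 strongest Rab peaks 8 held CAACAAC, with signals of 113 to 515, and the 3 without it were Rab5 at 209, Rab1 at 75.0 and Rab9 at 70.9. The sequences of those 3 printed above hold none of the 4 words. No such count was made over the strongest peaks of all genes. Whether the share of 8 in 11, or the signals with and without the word, are particular to Rab genes was therefore not tested.

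The word was also counted over the genes, whether or not they had a peak. It lay within 500 bp of a start at 6 of 8 Rab genes with a promoter summit and at 3 of 25 without. Over all protein-coding genes the shares were 59.8% and 21.8%. Counted inside the gene or near a start, it was present at 9 of 11 Rab genes with a summit by either rule and at 5 of 22 with neither, and over all genes at 82.9% and 42.9%. These counts do not place the word at the summit, as Rab5 had it near a start but not within 50 bp of its summit. Neither gene length nor the number of starts was held equal in them. The Rab shares rest on few genes and were not tested.

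Longer CAA runs were present at 7 of the 11 Rab genes with a peak. Over all protein-coding genes, 1856 of the 2935 with a summit by either rule had such a run. An unbroken run of at least 3 CAA units, on either strand, was found in or near 8 Rab genes, and 7 of them had a conservative summit. Of 25 Rab genes without such a run 4 had one. Over all protein-coding genes the shares were 52.1% of 3565 with a run and 10.4% of 10403 without. Gene length was not held equal here. The share of all genes with a summit inside was 1.52% up to 1000 bp of length and 42.5% over 5000 bp. The run had 4 units at Rab35, RabX1, Rab11 and Rab26, and 3 at Rab14, Rab7, Rab8 and Rab32. At the 7 genes with a peak, the middle of the run was 1 bp (Rab11) to 29 bp (RabX1) from the summit. Counting was also tried with the units read in any phase (CAA, AAC or ACA), a choice made after seeing the data. It gave 11 Rab genes with a run, of which 9 had a summit, and the added genes were Rab5, RabX6 and RabX4. The Rab5 summit itself held no CAACAAC within 50 bp.

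Rab26, a tissue-limited gene, had a run without a conservative summit. Rab26 acts on synaptic vesicles, is the longest Rab gene at 16254 bp and held CAACAAC 8 times, the most of any Rab gene. Its run was 2351 bp from the nearest call of the conservative ranked list, which had a signal of 49.5. The longest run at Rab26 thus had no call beside it, whereas a run of the same length at RabX1 had the strongest Rab peak.

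**Figure D5:**
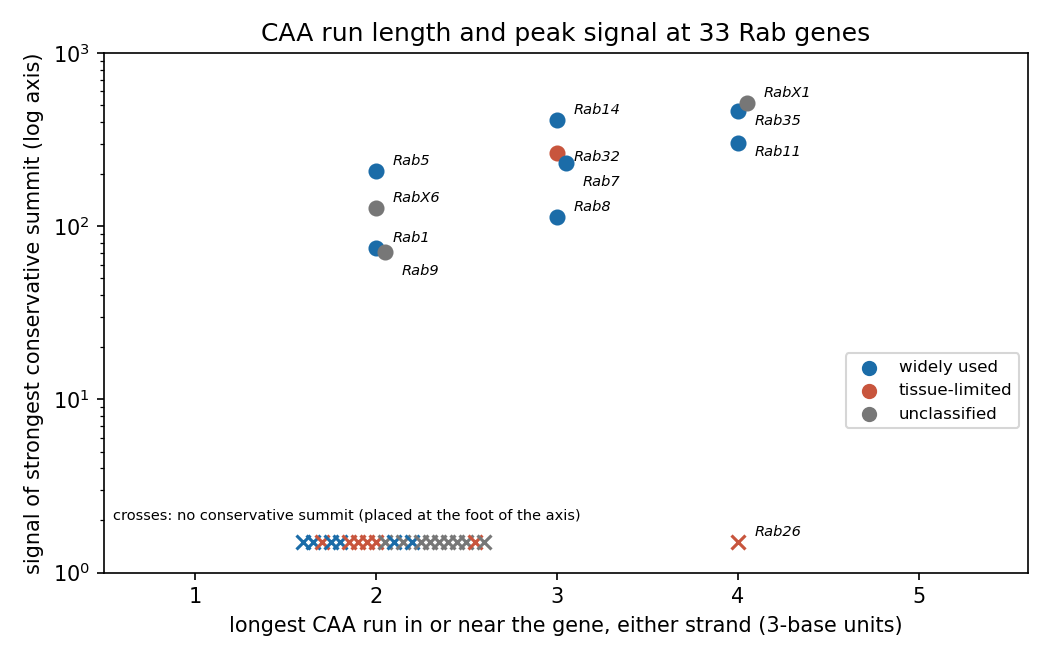
Longest CAA run in each Rab gene or within 500 bp of its starts (in 3-base units, with points of equal length set slightly apart) against the signal of its strongest conservative summit (log axis). Genes with 3 or more units have signals of 113 to 515 apart from Rab26, which has no conservative summit and is drawn as a cross at the foot like the other genes without one.

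Genes that act with the Rab proteins were counted in the same way from lists made with earlier results of these data known. Of 26 regulators, 7 (26.9%) had a conservative promoter summit and 10 had a summit by either rule. The shares over all protein-coding genes were 15.9% and 21.0%. The strongest promoter signals were at wkd, a TBC protein (392), spri, an exchange factor of the Rab5 class (325), and Tbc1d8-9 (219.7). Mon1, part of the exchange factor for Rab7, had 169, sky, a TBC protein of synaptic endosomes, 165, and Evi5, which acts on Rab11, 118. Gdi, which keeps Rab proteins soluble, had a summit of 367 inside the gene and none at its start, and Rab3-GEF had one of 185 inside. The promoter counts for the regulators were 9 in replicate 1 and 5 in replicate 2. In those lists the shares over all protein-coding genes were 13.2% and 10.6%.

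Of 34 effectors and tethers found among 39 listed, 10 (29.4%) had a conservative promoter summit, 7 (20.6%) in replicate 1 and 5 (14.7%) in replicate 2. In the same order, the shares over all protein-coding genes were 15.9%, 13.2% and 10.6%. The highest were btsz, a synaptotagmin-like protein, at 424, Vps35 of the retromer at 297 and Rip11, a Rab11 effector, at 264. Vps39 of the HOPS tether had 162, nuf, another Rab11 effector, 136 and didum, a myosin motor, 108. Inside nuf a further summit reached 838, higher than any Rab peak. Sec15, also a Rab11 effector, had no summit in any of the 4 lists.

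Of 31 other small GTPases found among 34 listed, 10 (32.3%) had a conservative promoter summit, 9 in replicate 1 and 7 in replicate 2. In the same order, the shares over all protein-coding genes were 15.9%, 13.2% and 10.6%. Among the highest were Ran at 482, which drives nuclear transport, and Arl1 at 261, a Golgi protein. Arl5 had 259.6, Rap1 249 and dnd 225. In the conservative list the Rab promoter share of 24.2% was the lowest of the 4. In the pooled list the Rab share of 30.3% was above those of the effectors (29.4%) and the other small GTPases (9 of 31). In replicate 2 it was 21.2%, above the regulators (19.2%) and the effectors (14.7%), so the order of the lists was not stable. The differences were not tested.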

How the data were processed

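Peaks came from anti-GFP ChIP-seq of 2 biological replicates in 1 group, on dm6 per the file headers; chromatin was sonicated to 200 to 800 bp per the labels. The sources used here name no aligner or caller. The authors deposited a signal of unstated scale for each call, and a score, which started at 830 in the thresholded lists. A further column of the deposited ranked lists held −log10 of the global IDR, and thresholded calls began at 2. Depth is unknown.

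Summits were compared with Ensembl transcript starts (500 bp) and gene bodies. Words were searched within 50 bp of summits in the RefSeq genome. Replicate values were read from ranked calls with a summit within 150 bp. Named were every member with a conservative summit, the strongest ranked call of the others, and up to 6 genes of each companion list by promoter signal; 1 of these is not reported here. Gdi, Rab3-GEF and the summit inside nuf were chosen after their values were seen. Members, lists and searched words were chosen with earlier results of these data known. Alternatives were the other lists, a stricter IDR, other distances, gene 5′ ends, peak intervals and merged calls. On simulated summits, 200 of 200 planted genes were recovered among 13968. Python 3.11.15, numpy 2.4.6, pandas 2.3.3, pysam 0.24.0 and matplotlib 3.10.9 were used.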

Additional observations from a re-analysis of the deposited data

How the results depend on the processing

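Of the counts recomputed under the alternatives, 37 stayed within 1.5 times the conservative value and 5 did not. The tissue-limited promoter count was 3 in the pooled list against 1. At an IDR of at most 0.001 the count over all protein-coding genes was 1356 against 2214, and within 250 bp the widely used count was 3 against 5. Leaving out 1 replicate gave 6 to 7 Rab genes with a promoter summit, 8 to 9 with one inside, 2 to 5 widely used, 1 to 2 tissue-limited and 1480 to 1848 of all protein-coding genes. The cause of these shifts was not tested. Reading CAA runs in any phase, chosen after seeing the data, gave 9 Rab genes with a run and a summit against 7. No paired analysis was possible because there was only 1 group. Small member numbers and unknown depth limit every share.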
